A study of Mus musculus with 2 samples.

Results

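The 10 genes described here encode the calcium/calmodulin-dependent protein kinases: Camk2a, Camk2b, Camk2d and Camk2g (CaMKII), Camkk1 and Camkk2 (the upstream kinases), and Camk1, Camk1d, Camk1g and Camk4 (CaMKI and CaMKIV). Their peaks were those that the authors' annotation table assigned to one of these gene symbols, by position alone and without use of the signal. The rule gave 141 of 99782 annotated peaks. The data are CUT&Tag, in which an antibody directs a Tn5 transposase to the chromatin its target occupies and the transposase marks the DNA there. Of the 2 libraries, 1 was made with anti-FLAG and 1 with IgG, both from hippocampus of C57BL/6J mice of genotype CamK-PARIS. The groups therefore share strain, tissue and genotype and differ only in the antibody. Every value below comes from peaks of the anti-FLAG library, and the IgG library entered only through the authors' peak calling. The labels give no age, no number of animals, no second library per antibody, no mouse without the transgene and no account of the construct. No value has a replicate error, no test between antibodies was possible, and the intervals below are 95% intervals for counting error over peaks only. The order of any 2 values of signal therefore cannot be set against a spread.

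Calcium that enters a neuron binds calmodulin, and calcium-loaded calmodulin switches these kinases on. CaMKII assembles into large holoenzymes of mixed subunits, is very abundant at hippocampal synapses and is needed for long-term potentiation. CaMKK phosphorylates and so activates CaMKI, which acts mainly in the cytoplasm, and CaMKIV, which acts in the nucleus on CREB. The FLAG-tagged protein PARIS (Zfp746) is a zinc finger repressor of transcription. The Camk2a promoter is widely used to drive transgenes in excitatory neurons of the forebrain, and Camk2a is taken here as the gene to which the genotype's name refers.

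The promoters of the kinases differed in base composition and in whether a peak covered the transcription start site (TSS), so the sequences before the RefSeq starts are shown first. Of the 10 genes, 7 are shown from the RefSeq promoter table (mm10). Camk2g had no entry in it. Camk2a and Camk4 were left out of this part, which does not mean that they lack an entry. The 200 bases before each start are given 5′ to 3′ on the gene's strand, with the GC box GGGCGG or its complement CCGCCC in capitals. For Camk1 and Camk1g only the first 138 and 184 of these bases are printed, since the rest is annotated as untranslated region in GENCODE M21.
Camkk1, chr11:73018788-73018987, plus strand: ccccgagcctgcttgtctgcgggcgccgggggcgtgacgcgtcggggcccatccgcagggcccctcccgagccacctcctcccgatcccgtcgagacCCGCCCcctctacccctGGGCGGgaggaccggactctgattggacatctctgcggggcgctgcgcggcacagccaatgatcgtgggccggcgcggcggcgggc
Camk2b, chr11:6065749-6065948, minus strand: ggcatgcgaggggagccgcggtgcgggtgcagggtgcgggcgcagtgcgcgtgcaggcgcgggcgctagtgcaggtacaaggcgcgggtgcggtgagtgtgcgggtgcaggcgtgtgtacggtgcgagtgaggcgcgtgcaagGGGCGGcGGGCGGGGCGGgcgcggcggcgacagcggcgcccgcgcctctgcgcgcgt
Camk2d, chr3:126596751-126596950, plus strand: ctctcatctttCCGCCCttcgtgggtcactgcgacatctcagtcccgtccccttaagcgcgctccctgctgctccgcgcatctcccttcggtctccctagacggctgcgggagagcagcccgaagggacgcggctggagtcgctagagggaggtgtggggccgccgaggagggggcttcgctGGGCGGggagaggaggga
Camk1d, chr2:5714763-5714962, minus strand: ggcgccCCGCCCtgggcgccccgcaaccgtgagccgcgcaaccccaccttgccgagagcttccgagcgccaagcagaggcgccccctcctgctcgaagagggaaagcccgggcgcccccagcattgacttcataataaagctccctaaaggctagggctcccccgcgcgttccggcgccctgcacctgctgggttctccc
Camkk2, chr5:122779411-122779610, minus strand: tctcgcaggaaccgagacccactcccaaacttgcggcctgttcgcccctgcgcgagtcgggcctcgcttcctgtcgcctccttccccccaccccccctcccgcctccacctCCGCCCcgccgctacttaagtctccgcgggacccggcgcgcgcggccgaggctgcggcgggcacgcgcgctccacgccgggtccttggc
Camk1, chr6:113343985-113344122, minus strand: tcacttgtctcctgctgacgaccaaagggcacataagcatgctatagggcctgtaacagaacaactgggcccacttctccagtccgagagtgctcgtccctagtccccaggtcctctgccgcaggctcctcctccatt
Camk1g, chr1:193370299-193370482, minus strand: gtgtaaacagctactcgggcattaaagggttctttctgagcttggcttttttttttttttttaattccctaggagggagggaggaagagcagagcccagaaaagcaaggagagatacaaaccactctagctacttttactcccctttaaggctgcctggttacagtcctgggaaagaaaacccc

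The starts of Camkk1, Camk2b, Camk2d and Camk1d each lay in a peak. The maximum signal (the highest coverage inside a peak, as the authors give it, in a scale that the labels do not state) of those peaks was 580, 152, 91 and 302. The start of Camkk2 lay 1969 bp from the nearest peak, that of Camk1 10072 bp and that of Camk1g 498 bp. GC content of the 200 bases was 76.0% for Camkk1, 78.5% for Camk2b, 68.5% for Camk2d, 70.0% for Camk1d, 75% for Camkk2, 62.5% for Camk1 and 45.0% for Camk1g. The mean over 32851 RefSeq promoters was 53.9% ± 12.1 (SD). The number of CpG dinucleotides was 26, 35, 19, 19, 28, 11 and 1 in the same order, against a median of 5. The 4 starts inside a peak thus all had more CpG than the median promoter, but so did Camkk2 and Camk1, whose starts lay outside peaks. GGGCGG on either strand was in 5 of these 7 promoters, with 3 matches in Camk2b, some of which overlap, 2 each in Camk2d and Camkk1, and 1 each in Camk1d and Camkk2. It was in 31.0% of all RefSeq promoters over the same length. The RefSeq table had another start for Camk1d, 40 bp from a peak of maximum signal 120, with 47.5% GC and 4 CpG before it.

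The insulin response sequence, TATTTTT or TATTTTG, which has been described as the element bound by PARIS, was searched on both strands, and the 2 forms cannot match at the same first base. It was in none of the 7 promoters above, where TATTTTT was in 5.48% and TATTTTG in 2.98% of all RefSeq promoters. The cAMP response element TGACGTCA was in none of them either, against 1.47% of all. In windows of 200 bp centred on the summit of each peak, TATTTTT or TATTTTG was found in 13 of 141 kinase peaks (9.22%) and in 9.97% of all annotated peaks. Neither form was more frequent at the summit than in windows 1 kb to either side. For kinase peaks TATTTTT was in 7.09% of summit and 8.16% of flanking windows, and TATTTTG in 4.26% and 4.96%. For all annotated peaks the shares were 6.80% and 9.24% for TATTTTT, and 3.69% and 5.12% for TATTTTG. Of the 18 kinase peaks whose region of maximum signal lay within 1 kb of a TSS, 1 held either form (5.56%), against 5.41% of all peaks that near. TGACGTCA was found in 0 of 141 windows and in 0.300% of all. GGGCGG was found in 14 of 141 (9.93%) against 8.47%, and in 8 of the 18 near a TSS (44.4%) against 29.7% of all peaks that near. A match is a description of the letters in the window. The shares for these kinases lay close to those of the whole peak list except for GGGCGG near the TSS, where 18 peaks are few.

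Windows of 200 bp at 4 peaks inside the gene bodies are printed next, again on the gene's strand, to show places that differ in sequence. The first is the window near the start of Camk2g, for which no RefSeq promoter is printed, and the second lies 29 bp before an internal start of the same gene, under its highest maximum signal. The third is from intron 2 of Camk1d, under the highest maximum signal of that gene, and the fourth, from intron 1 of Camk1d, holds both forms of the insulin response sequence. Both Camk2g windows overlap an exon of the gene in GENCODE M21, and the Camk1d windows overlap none. Capitals mark the GC box and the insulin response sequence on either strand.
Camk2g, near the start, chr14:20793740-20793939, minus strand: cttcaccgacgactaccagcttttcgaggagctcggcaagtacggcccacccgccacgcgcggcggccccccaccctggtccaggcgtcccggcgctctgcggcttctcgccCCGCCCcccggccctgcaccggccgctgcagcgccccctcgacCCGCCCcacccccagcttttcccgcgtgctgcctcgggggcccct
Camk2g, internal start, chr14:20791096-20791295, minus strand: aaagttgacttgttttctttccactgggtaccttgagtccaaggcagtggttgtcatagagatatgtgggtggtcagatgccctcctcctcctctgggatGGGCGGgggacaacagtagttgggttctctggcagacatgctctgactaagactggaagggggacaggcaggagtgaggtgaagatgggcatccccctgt
Camk1d, intron 2, chr2:5469347-5469546, minus strand: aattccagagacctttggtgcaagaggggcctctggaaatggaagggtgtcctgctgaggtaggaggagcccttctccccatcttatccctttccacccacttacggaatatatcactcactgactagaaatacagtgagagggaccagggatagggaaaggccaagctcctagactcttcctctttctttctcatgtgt
Camk1d, intron 1, chr2:5601736-5601935, minus strand: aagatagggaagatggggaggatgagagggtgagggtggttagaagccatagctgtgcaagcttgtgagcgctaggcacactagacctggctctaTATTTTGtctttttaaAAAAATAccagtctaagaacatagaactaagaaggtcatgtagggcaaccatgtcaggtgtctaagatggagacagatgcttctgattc

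The Camk2g window near the start had 76.5% GC, 25 CpG and 2 GC boxes, and its peak had a maximum signal of 149. The window at the internal start had 54.0% GC, 1 CpG and 1 GC box under a maximum signal of 299. The intron 2 window of Camk1d had 50% GC, 1 CpG and none of the motifs under a maximum signal of 391, and the intron 1 window 44.5% GC and 1 CpG under 202. The tallest of these 4 peaks did not stand on the most GC-rich of these windows. The tallest kinase peak, at Camkk1 with 580, is not among the 4 and had 76.5% GC in its window. Over all 141 kinase peaks, GC content was 50.7% ± 8.58 (SD over peaks) in the window and 48.3% in the 2 flanking windows. It was higher than in the flanks at 83 of the 141 (58.9%), against 64.3% of all annotated peaks, with a mean difference of 2.40 percentage points, where all annotated peaks differed by 3.44. For the 18 kinase peaks within 1 kb of a TSS GC content was 58.5% ± 11.1 and the difference 6.19, against 57.5% and 8.06 for all peaks that near.

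Among the CaMKII genes, Camk2a (mm10, chr18:60925618-60988152, plus strand), the most abundant CaMKII subunit of the forebrain, had 22 peaks, which lay densely over its 5′ side. In the 10 kb before its start there were 5 peaks with maximum signals of 71, 349, 63, 219 and 300, from the far end to the start. The peak of 71 carries the symbol Arsi and is not among the 22. The peak of 300 spanned the start itself, at chr18:60924270-60925984, and its region of maximum signal lay 720 bp before the start. The peaks of 71 and 63 were of constant height, which means that the total signal (the area under the coverage of the peak) was at least 99% of the maximum times the width. The other 3 were not. The total signal of the 5 summed to 512270, the 99.8th percentile and rank 51 of 21755 protein-coding genes on chromosomes 1 to 19 and X, where the median gene had 5611. In the 10 kb after the start Camk2a had 8 peaks with a total signal of 520969, rank 85 of the same genes. The spanning peak counts on both sides, and without it the upstream sum of Camk2a was 271291, rank 106. If the construct carries Camk2a promoter sequence, its reads align to the endogenous gene, and the transgene and the locus cannot be told apart in these files.

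**Figure D1:**
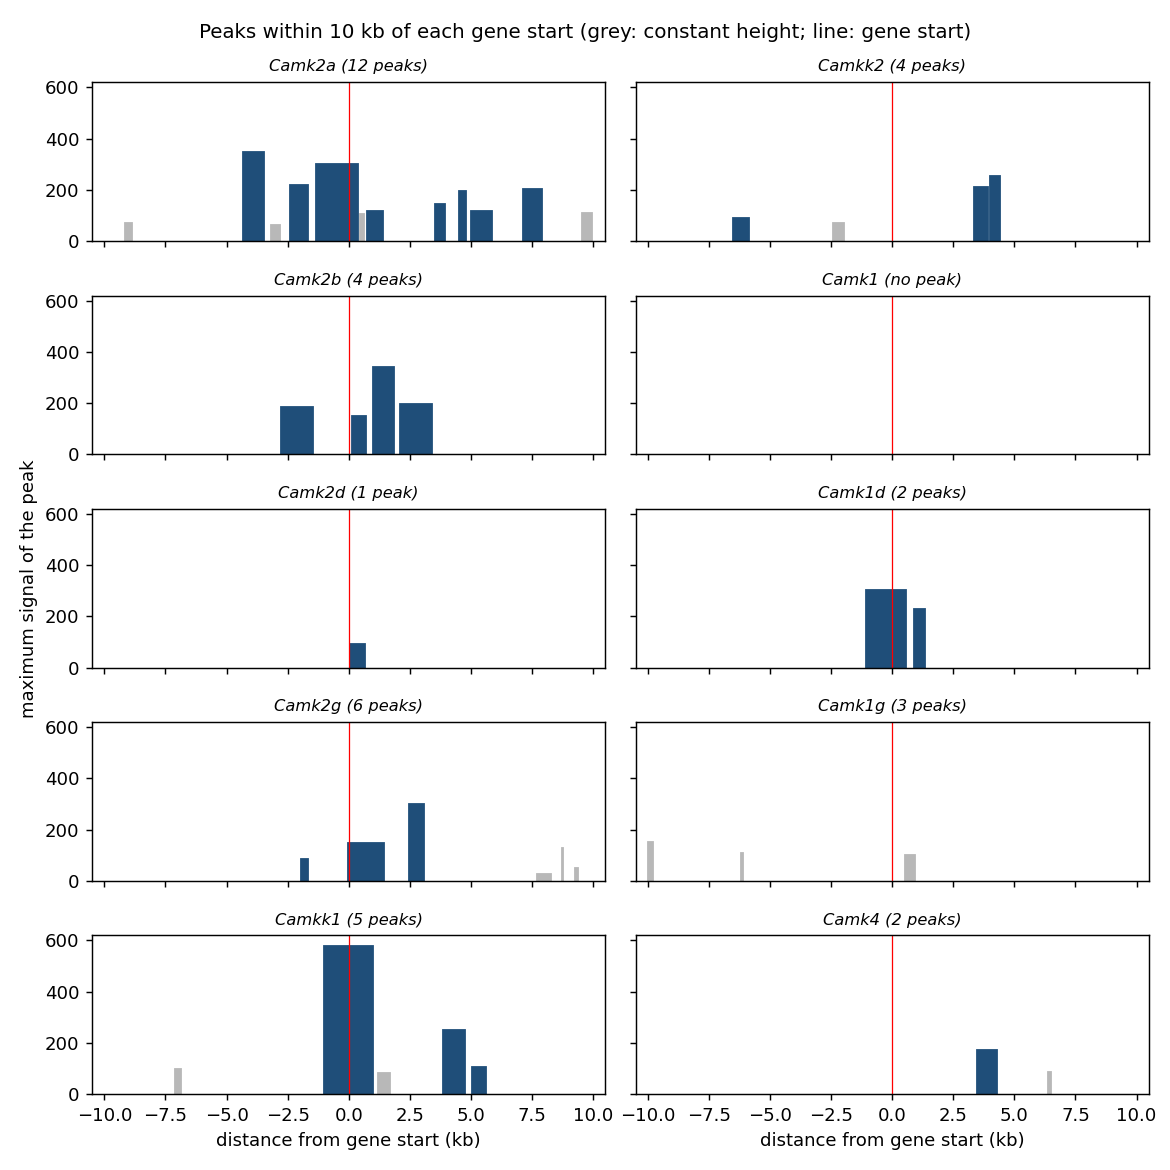
Peaks within 10 kb of the annotated gene start of each kinase gene: the x axis gives the distance from the start in kb, with the direction of transcription to the right, and the y axis the authors' maximum signal. Each bar is 1 peak at its true width, grey where it is of constant height, and bars start at 0. Camk2a had 12 peaks in this range, Camkk1 5 and Camk1 none.

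Camkk1, which the genotype does not name, had more signal than Camk2a on both sides of its start, which rested on 1 spanning peak that counts on both. Its 10 kb upstream total was 572513 (rank 37), of which 549017 came from 1 peak that spans the start and 23496 from a constant-height peak assigned to P2rx1, and its downstream total was 737324 (rank 20). For Camk1d the upstream total was 241656 (1 peak, rank 469), and for Camk2g 145043 (2 peaks, 93.2nd percentile). The peak of Camk1d and 1 of the 2 of Camk2g span the gene start. Without the spanning peak, 24363 remained for Camk2g and no peak for Camk1d. The total was 88523 for Camk2b (1 peak, 85.4th percentile), 73071 for Camkk2 (2 peaks) and 40595 for Camk1g (2 peaks). Camk2d, Camk1 and Camk4 had no peak there, with the gene start taken as the outermost annotated start of any transcript. A peak in these 10 kb was thus present for 7 of the 10 genes, where 51.5% of protein-coding genes had one. Camk2a differed from Camkk1 in how the signal was laid out: with the spanning peak left out, 4 peaks with 271291 remained before Camk2a and 1 peak with 23496 before Camkk1. After the start, 279990 remained for Camk2a and 188307 for Camkk1, so without the spanning peaks Camk2a had more on both sides.

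Further into Camk2a, 7 more peaks lay in the 10 kb after the start besides the spanning one, with maximum signals of 105, 117, 146, 195, 117, 202 and 109. The peak of 105 and the peak of 117 nearest to the start are close to annotated starts, and the peaks from 195 to the last lie in intron 1 of the reference transcript. A peak of maximum signal 123 lay 243 bp before the start of a short transcript of the gene (200 codons, against 478 for the full-length kinase), 37936 bp from the gene start. That transcript is of the kind that encodes αKAP, a protein with the association domain of CaMKII but no kinase domain. The 3 peaks of Camk2a in the 3′ untranslated region had maximum signals of 60, 87 and 118. Of its 22 peaks 10 were of constant height and 5 were among the 10% of annotated peaks with the highest maximum signal.

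Camk2b (chr11:5969644-6066362, minus strand), the other main CaMKII subunit of neurons, which binds actin, had 28 peaks with a lowest, median and highest maximum signal of 16, 120 and 340. The peak of 340 lay 540 bp after a start, at chr11:6064498-6065353, next to the peak of 152 that covers the RefSeq start printed above and a peak of 196 further in. The 3 together put 305628 of total signal into the 10 kb after the gene start (98.4th percentile). A second group of peaks lay in introns 1 and 2, the tallest with a maximum signal of 309 at chr11:6030203-6031241 in intron 1. Upstream, 5 of the 28 were distal intergenic, the tallest with 240 at 12622 bp before the TSS. The tall peaks of Camk2b were therefore spread over the start, intron 1 and the intergenic side, while the farthest peak assigned to the upstream side of Camk2a lay 3770 bp before its TSS.

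Camk2d (chr3:126596302-126846326, plus strand), the subunit best known from the heart, had 10 peaks with a lowest, median and highest maximum signal of 22, 101.5 and 159. A peak of 91 began 58 bp after the gene start and covered the RefSeq start printed above, and the peak of 159 lay in intron 16, at chr3:126831510-126831930. None of the 10 was among the top 10% by maximum signal. Camk2g (chr14:20734875-20794088, minus strand) had 9 peaks from 26 to 299 with a median of 115. Of these, 3 lay within 1 kb of a TSS, with maximum signals of 149 at the gene start, 299 at the internal start whose sequence is shown above and 121 at a further start. The highest total signal of Camk2g, 120680, was in the wide peak over the gene start rather than in the taller, narrower one.

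The upstream kinases held both the highest promoter peak and a start without one. Camkk1 (chr11:73019008-73042073, plus strand) had 4 peaks, with maximum signals of 580, 252, 105 and 83. The peak of 580 spanned the start, was 2038 bp wide at chr11:73017983-73020020, and was 155th of the annotated peaks by maximum signal and 28th by total signal. It was also the promoter peak, meaning a peak with its region of maximum signal within 1 kb of a TSS, that put Camkk1 at rank 79 of 21755 protein-coding genes. The peak of 252 lay in intron 1. Camkk2 (chr5:122731170-122779409, minus strand), which also phosphorylates AMPK, had 8 peaks from 13 to 253 with a median of 79.5. Its 2 tallest peaks, 253 and 210, lay side by side in intron 1, at chr5:122774980-122775424 and chr5:122775505-122776064, and were 4067 and 3285 bp from the assigned TSS. Its promoter peaks had 125 and 69, were both of constant height and lay at internal starts. The gene start itself was 1970 bp from any peak.

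The targets of CaMKK ranged from a gene body without peaks, in Camk1, to the gene with the most peaks, Camk1d. Camk1 (chr6:113334124-113343984, minus strand), the shortest gene with 9.861 kb, had 1 peak, a distal one of constant height with a maximum signal of 61, and no peak in its body. No peak in the body was also found for 39.1% of protein-coding genes. The nearest peak of any assignment lay 10134 bp from its gene start and carried the symbol Ogg1. Camk1d (chr2:5293457-5714515, minus strand), the longest with 421.059 kb, had 40 peaks, of which 35 were intronic: 18 in intron 1, 9 in intron 2 and 8 in intron 3. The lowest, median and highest maximum signals were 14, 113 and 391 over the 35 and 14, 120 and 391 over all 40. The 3 tallest, with 391, 370 and 382, lay 206582, 207568 and 263782 bp from the assigned TSS, in introns 2, 2 and 3. At the start of Camk1d the spanning peak had a maximum signal of 302 and the highest total signal of the gene, 241656, and a neighbour 885 bp after the TSS had 228. The tallest peaks of Camk1d were thus inside the gene and not at its start, the reverse of Camkk1.

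Camk1g (chr1:193346346-193370298, minus strand) had 10 peaks from 52 to 152 with a median of 92.5, of which 7 were distal intergenic and 7 of constant height. Its only promoter peak, which was of constant height, had 103 and lay 443 bp after the TSS. Camk4 (chr18:32934931-33191228, plus strand), the nuclear kinase, had 9 peaks from 48 to 172 with a median of 86, and 8 of the 9 were of constant height. The exception was its tallest, with 172, which began 3468 bp after the gene start. That gene start belongs to a transcript of the nonsense-mediated decay type. The peak covered the start of a protein-coding transcript, and its region of maximum signal lay 125 bp before that start. Neither Camk1g nor Camk4 had a peak among the top 10% by maximum signal.

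**Figure D2:**
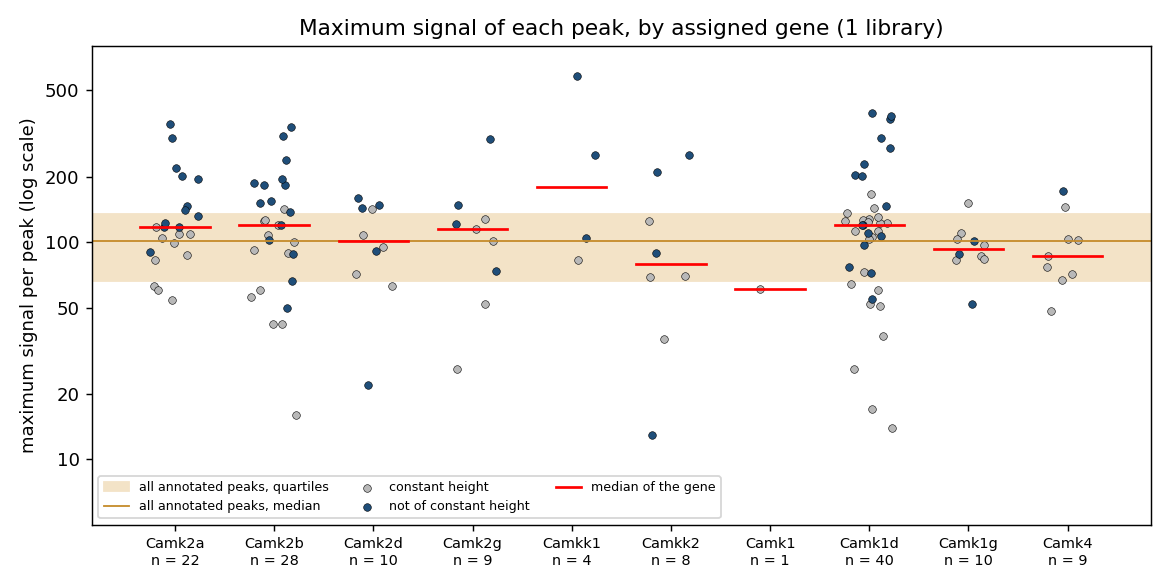
Maximum signal of each of the 141 peaks by assigned gene, on a log scale, in the anti-FLAG library. Each point is 1 peak, the red line is the median of the gene, and the band and line behind the points are the quartiles (66 and 135) and the median (101) of all annotated peaks. Camkk1 holds the highest point, 580, and the gene medians run from 61 to 178.5.

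**Figure D3:**
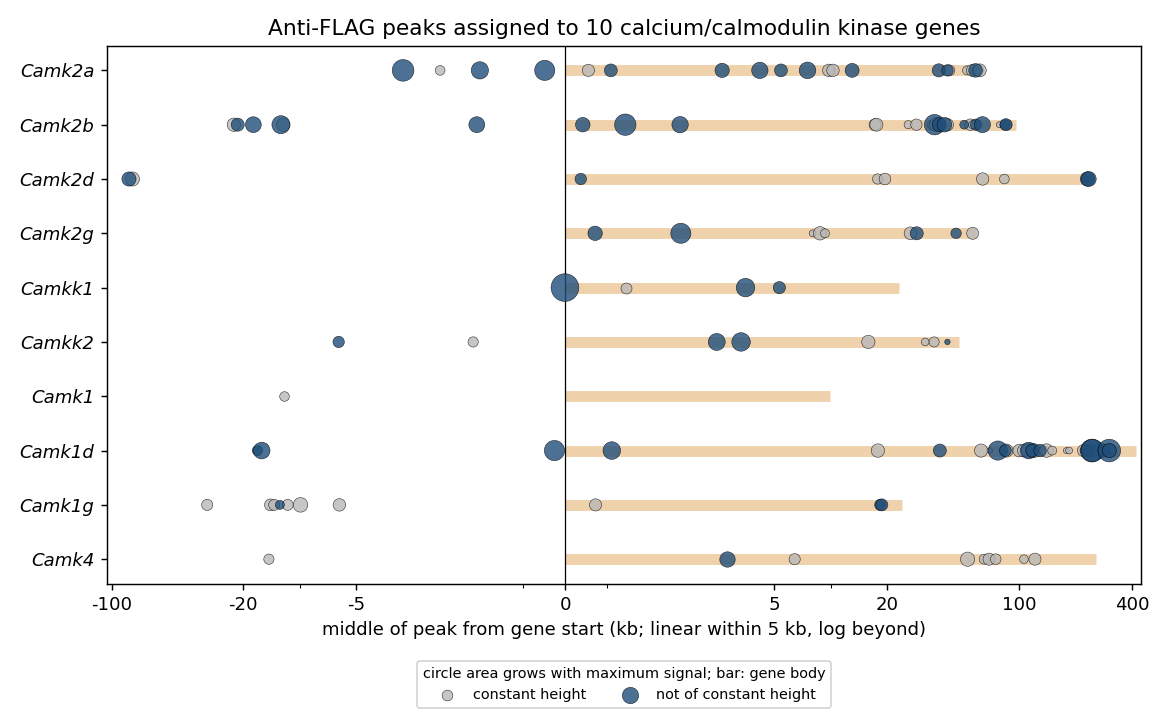
Position of the 141 peaks relative to the annotated start of their gene, in kb, linear within 5 kb of the start and logarithmic beyond. Circle area grows with maximum signal, and the bar is the gene body. The tallest peaks of Camk2a lie around its start, those of Camk1d deep in its body, and the body of Camk1 is empty.

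Most of the kinase peaks lay in introns, and their share near a TSS was close to that of all annotated peaks. Within 1 kb of a TSS lay 18 of 141 (12.8%, Wilson interval 8.23 to 19.3), against 15.3% of all annotated peaks. In introns lay 84 of 141 (59.6%, 51.3 to 67.3) against 38.0%, and 18 (12.8%) were distal intergenic against 31.9%. Camk1d, the longest gene, supplied 35 of the intronic peaks, and without it 49 of 101 (48.5%, 39.0 to 58.1) were intronic. Constant height was found for 77 of 141 (54.6%, 46.4 to 62.6) against 63.3%, and within 1 kb of a TSS for 4 of 18 (22.2%) against 44.5%. Among the top 10% by maximum signal were 22 of 141 (15.6%, 10.5 to 22.5) against 9.94%. Camk1d held 8 of the 22, Camk2a 5, Camk2b 4, Camkk1 and Camkk2 2 each and Camk2g 1. Without Camk1d the share by maximum signal was 14 of 101 (13.9%, 8.44 to 21.9), an interval that takes in the background of 9.94%. The median maximum signal was 109 for the kinase peaks (quartiles 74 and 145) and 101 for all.

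Counted per gene, 9 of the 10 kinases had a promoter peak, against 42.0% of protein-coding genes, and 7 of 10 one of varying height, against 28.5%. Any peak within 1 kb of the annotated gene start was found for 7 of 10 (39.7% of protein-coding genes). A peak spanned the gene start for 4 of 10 (20.6%): Camk2a, Camk2g, Camkk1 and Camk1d. This start is the outermost annotated one of any transcript type. Peaks also covered the RefSeq starts of Camk2b and Camk2d and a protein-coding start of Camk4. The highest promoter maximum signal was 580 for Camkk1 (rank 79), 340 for Camk2b (rank 592), 302 for Camk1d (rank 838), 300 for Camk2a (rank 860) and 299 for Camk2g (rank 870). It was 172 for Camk4, 125 for Camkk2, 103 for Camk1g and 91 for Camk2d. The last 3 lie between the 67.8th and the 76.4th percentile, whereas the median protein-coding gene had no promoter peak. By summed total signal of promoter peaks the order after Camkk1 (rank 31) was Camk1d (rank 132), Camk2a (rank 201), Camk2g (rank 435) and Camk2b (rank 694), so Camk2b fell from the second place to the fifth.

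The number of peaks followed gene length only in part. The 10 gene bodies cover 1250.97 kb and held the middles of 141 peaks of any assignment, a number that equals that of the assigned peaks by coincidence. Of the 141 assigned peaks, 117 overlapped their own gene body and 24 lay outside, and 27 of the 144 peaks that overlapped a body carried the symbol of another gene, such as Ccdc3 for 14 of 52 in Camk1d and Stard4 for 7 of 15 in Camk4. The density was 2.77 times the autosomal mean of 40.8 peaks per Mb (exact Poisson interval 2.33 to 3.26). It was highest in Camk2a, with 21 peaks or 8.24 times (5.10 to 12.6), then Camk2b with 22 or 5.58 times (3.50 to 8.45) and Camk2g with 11 or 4.56 times (2.28 to 8.16). Camkk2 had 7 peaks or 3.56 times (1.43 to 7.34) and Camk1d 51 or 2.97 times (2.21 to 3.91). Camk4, with 15 or 1.44 times (0.804 to 2.37), and Camk2d, with 8 or 0.785 times (0.339 to 1.55), did not differ from the autosomal mean beyond counting error. Camkk1 and Camk1g had 3 peaks each and Camk1 none, which leaves intervals that take in the mean. Among protein-coding genes these densities were at the 95.8th percentile for Camk2a, the 91.7th for Camk2b, the 88.4th for Camk2g, the 83.8th for Camkk2 and the 79.9th for Camk1d. Intervals wholly above the autosomal mean were found for these 5 of the 10 kinase genes and for 11.2% of protein-coding genes. That background was not matched for gene length, on which the width of an interval depends, and 39.1% of protein-coding genes had no peak in the body. The autosomal mean takes in DNA outside genes, and the median protein-coding gene had 34.6 peaks per Mb in its body. Camk1d, with the most peaks, was thus less dense than Camk2a, with intervals that do not overlap.

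**Figure D4:**
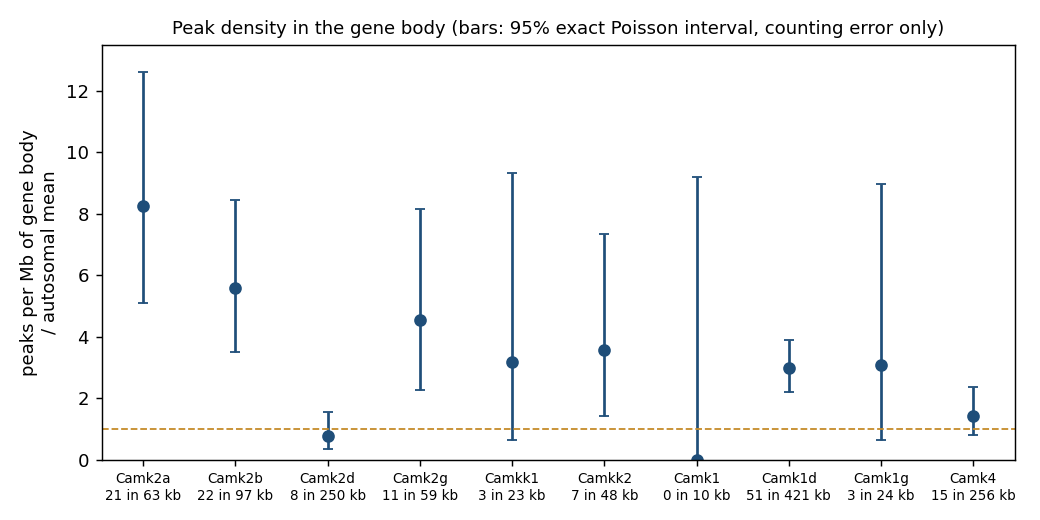
Peaks per Mb of gene body divided by the autosomal mean for each kinase gene, with exact 95% Poisson intervals that cover counting error only. The dashed line is the autosomal mean, and the labels give peaks and gene length. The intervals of 5 of the 10 genes, Camk2a, Camk2b, Camk2g, Camkk2 and Camk1d, lie wholly above it, as do those of 11.2% of protein-coding genes, not matched for length.

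Other genes of the pathway were taken from 4 lists of 42 genes in all. Of these, 36 had a promoter peak, against 42.0% of protein-coding genes, and 33 one of varying height, against 28.5%. Calmodulin and its buffers had one at 3 of 6 genes, the highest at Nrgn (neurogranin, which holds calcium-free calmodulin; 362), and Calm2, Calm3 and Pcp4 had none. A peak of 118 lay 710 bp from the gene start of Calm3, but its region of maximum signal lay 1107 bp after the TSS. Relatives and regulators of the kinases had one at 10 of 11, the highest at Camkv (a pseudokinase; 269), and Camk2n1, an inhibitor of CaMKII, had none by this measure. A peak of 403 covered the gene start of Camk2n1, but its region of maximum signal lay 1089 bp after the TSS. Calcineurin, the calcium-dependent phosphatase, and its regulators had one at 5 of 6, the highest at the inhibitor Rcan1 (338), and the catalytic subunit Ppp3cb had no assigned peak. A peak of maximum signal 167 covered the gene start of Ppp3cb but carries the symbol 1810062O18Rik. Substrates and targets had one at 18 of 19, the highest at Grin2b (an NMDA receptor subunit that CaMKII binds and phosphorylates; 442), with none at Mef2a. The median of the highest promoter maximum signal was 89, 134, 203 and 212 in these lists and 173 over all 42, beside 235.5 for the kinases and 0 for all protein-coding genes. Each of the 42 lay below Camkk1.

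**Figure D5:**
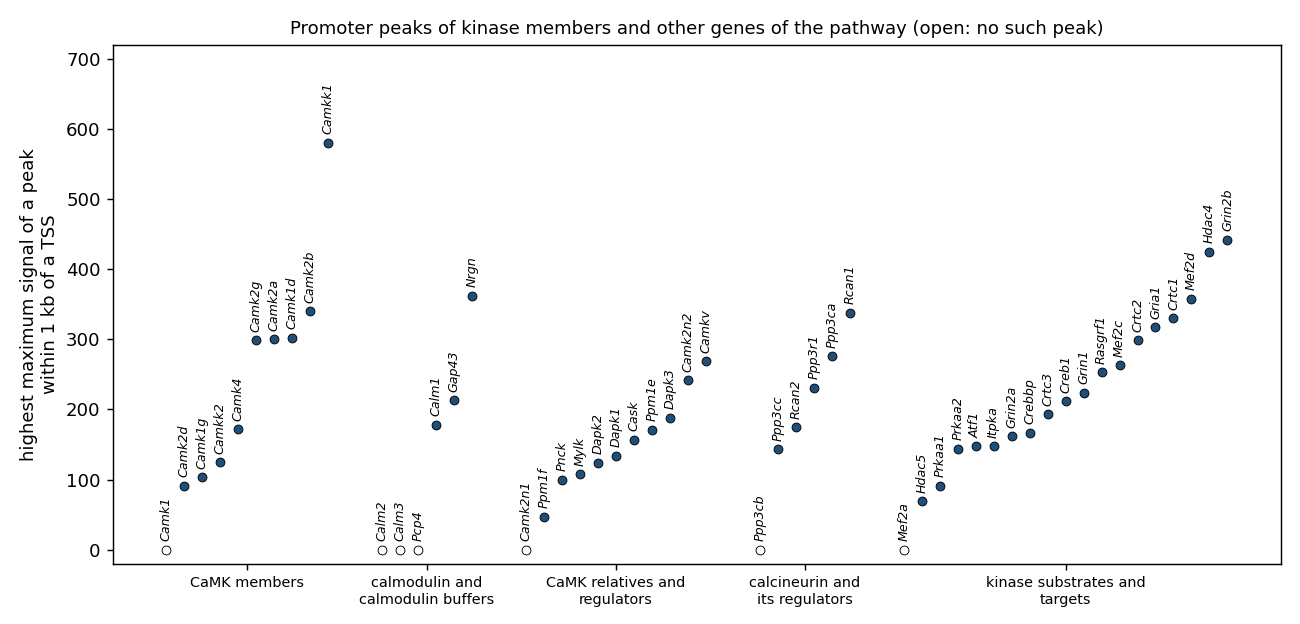
Highest maximum signal of a peak within 1 kb of a TSS for the 10 kinase genes and the 42 genes of the 4 pathway lists, each point 1 gene in order of its value within its list. Open points at 0 have no such peak. Camkk1 (580) is the highest point, and Grin2b (442) the highest in the pathway lists.

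Peaks do not measure RNA, so the labelled tissue could not be checked by expression. A promoter peak was found for 4 of 5 markers of excitatory neurons (none at Neurod6), the class in which the Camk2a promoter is mainly active, with the highest at Slc17a7 (228). It was found for 4 of 5 markers of inhibitory neurons (none at Sst), 1 of 5 of astrocytes, 1 of 5 of oligodendrocytes and 2 of 5 of microglia, where 42.0% of protein-coding genes had one. A promoter peak of varying height was found for 3 of the excitatory, 2 of the inhibitory, 0 of the astrocyte, 1 of the oligodendrocyte and 0 of the microglial markers, against 28.5% of protein-coding genes.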

How the data were processed

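CUT&Tag libraries made with anti-FLAG and with IgG (1 each) came from hippocampus of CamK-PARIS mice. Trimming, alignment to mm10 with Bowtie2, removal of poor and duplicate reads and SEACR peak calling against IgG were done by the authors, per the labels' protocols. The submitters' processing notes also name deepTools. Versions, SEACR mode and annotation tool are not given in the sources used here. The deposited signal (total and maximum per peak) has no stated scale, and the deposited TSS distance is in bp. Depth is unknown, and the IgG library's own coverage was not analysed here. Of 99797 peaks, 99782 had an annotation.

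Peaks were joined to GENCODE M21 on mm10, which holds the transcript of all 141 kinase peaks, with python 3.11.15, pandas 2.3.3, scipy 1.17.1 and pysam 0.24.0. Counting functions were tested on simulated data. Shares have Wilson intervals and densities exact Poisson intervals (95%). All 10 genes are named, and of each pathway or marker list the gene with the highest promoter peak and, up to 5, those without one (1 gene of the substrate list is not reported here); some peaks and windows were picked for description after their values were seen. The kinase genes, lists, constant-height measure (ratio of at least 99%) and alternatives were chosen with earlier results of these data known, and GGGCGG and 6 alternatives were added after the peaks had been seen. Alternatives changed which peaks count, how they are assigned, the TSS distance, the window and the measure ranked.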

Additional observations from a re-analysis of the deposited data

How the results depend on the processing

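With 1 library per antibody, depth unknown and no scale for the signal, no spread between libraries limits these values. No paired analysis was possible because each antibody has 1 library and no test was made. Of 53 alternatives over 7 quantities, 36 moved the value by less than its interval or limit, 17 by more and 0 reversed it. The 36 include some large changes. With peaks within 1 kb of each other merged, 99 kinase peaks remained and the gene body density was 2.40 times the autosomal mean. In the top 10% by total signal, 6 kinase genes had a promoter peak, where the main count was 9. The 141 kinase peaks became 82 above the median maximum signal, 22 in the top 10% by maximum signal, 22 in the top 10% by total signal and 64 without constant-height peaks. The share within 1 kb of a TSS was 19.5%, 27.3%, 36.4% and 21.9% in these same subsets. Shares of all annotated peaks in those subsets are not given here, so these values have no background beside them. At 3 kb the share was 22.7%, against 24.6% of all annotated peaks. Kinase genes with a promoter peak fell to 5 in the top 10% by maximum signal, where the gene body density was 3.33 times the autosomal mean (3.32 in the top 10% by total signal). The upstream percentile of Camk2a (99.8 at 10 kb, rank 51) was 99.8 at 5 kb, where its rank moved to 37, 99.5 at 20 kb, 97.1 by highest maximum signal and 99.5 without the spanning peak, an alternative chosen after seeing the data. The median maximum signal without constant-height peaks was 146. These counts fell by construction, since fewer peaks were kept.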
